A study of Mus musculus with 35 samples.

Results

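The step from postnatal day 14 (P14) to postnatal day 21 (P21) in mouse haematopoietic progenitor cells (HPCs) was described by comparing their maps of open chromatin. It covers 4 of the 35 ATAC-seq libraries of the series, 2 of P21 HPCs and 2 of P14 HPCs, and each age has 1 peak list made from its pooled libraries. In each list, touching or overlapping peaks on chromosomes 1 to 19 and X were merged into regions, which gave 74297 regions at P21 and 91043 at P14. A region counts as shared when 1 bp or more of it is covered by the list of the other age, and is otherwise in 1 list alone. The series mapped HPCs and haematopoietic stem cells (HSCs) from fetal life to adulthood in 24 libraries with 8 lists, here called set 1. The other 11 libraries, set 2, came from wild-type mice and from mice labelled as lacking Ifnar, the type I interferon receptor, at P7, and had 4 lists of another kind. Both HPC groups compared here carry the cell type label of progenitor cells and an age, with no treatment, and the series gives a B6 background for all experiments. The labels give no genotype, sex, sorting gate or number of mice per library for them, although the library names hold the letters wt.

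ATAC-seq uses the Tn5 transposase, an enzyme that cuts and tags DNA where nucleosomes or other proteins leave it exposed, so peaks of tagged fragments mark promoters, enhancers and other accessible elements. HPCs descend from HSCs and give rise to myeloid, lymphoid, erythroid and megakaryocytic cells. Around birth, blood formation moves from the liver to the bone marrow, and in the weeks that follow progenitors leave a fetal programme marked by genes such as Lin28b, Hmga2 and Igf2bp3.

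The assignment of the lists rests on their own names. The descriptions of all 4 libraries name another list than that of their own age and cell type: both P21 libraries and 1 P14 library name the list of P14 HSCs, and the other P14 library names that of P7 HPCs. The P21 HPC list is in turn named by 2 libraries, of fetal HPCs and adult HSCs, and the P14 HPC list by 2 libraries of adult HSCs. Markers of progenitors and of other cell types were looked up in both lists. They were not compared with the HSC lists or those of other ages, so they do not settle which list belongs to which library. Of 9 progenitor markers with an annotated promoter window (250 bp before to 50 bp after the start), 8 had a called promoter at P21 and 9 at P14, among them Kit, Cd34, Flt3, Myb, Runx1 and Ptprc, and Cd27 was called at P14 alone. No promoter was called in either list for hepatocytes (4 markers with a window), T cells (3), macrophages (2) or erythroid cells (3), and of 2 B cell markers none was called at P21 and Cd79a at P14. The promoters of Kdr and Emcn (endothelium), Col1a2 (stroma) and Neurod1, Syt1 and Sox1 (neurons) were called in both lists. The part of other cells in any result was not tested.

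The strongest differences at promoters are shown here as sequence. The windows are those of RefSeq on GRCm38.p6, on the strand of the gene, and a CG dinucleotide, the site of DNA methylation and the mark of CpG islands, is in capitals in the first 4. H2-Q6 and Hbq1b had the promoter regions with the highest -log10 p at P21 alone, and Kctd11 and Fkbpl those at P14 alone. H2-Q6, a class Ib MHC gene, lies at chr17:35424600-35424899 on the plus strand, and its window held 11 CG sites. Hbq1b, a theta globin gene of the alpha globin cluster, lies at chr11:32286714-32287013 on the plus strand, with 13 CG sites. Both belong to families with near-identical copies, so the placement of their reads is uncertain. Kctd11, an adaptor of a ubiquitin ligase, lies at chr11:69880936-69881235 on the minus strand (23 CG sites), and Fkbpl, a relative of the FK506-binding proteins, at chr17:34644564-34644863 on the plus strand (12 CG sites).
H2-Q6: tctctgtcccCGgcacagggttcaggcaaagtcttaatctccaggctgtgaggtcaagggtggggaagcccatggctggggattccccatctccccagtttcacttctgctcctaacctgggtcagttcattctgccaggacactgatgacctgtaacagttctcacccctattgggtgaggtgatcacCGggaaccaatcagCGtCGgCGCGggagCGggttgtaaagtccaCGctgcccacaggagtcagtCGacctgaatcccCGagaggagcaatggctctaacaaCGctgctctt
Hbq1b: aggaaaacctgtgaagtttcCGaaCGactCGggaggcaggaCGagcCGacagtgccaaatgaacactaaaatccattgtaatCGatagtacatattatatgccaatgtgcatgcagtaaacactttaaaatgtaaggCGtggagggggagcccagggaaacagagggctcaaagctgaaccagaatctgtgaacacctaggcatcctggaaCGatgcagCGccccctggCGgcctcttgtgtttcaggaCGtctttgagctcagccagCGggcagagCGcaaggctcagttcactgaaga
Kctd11: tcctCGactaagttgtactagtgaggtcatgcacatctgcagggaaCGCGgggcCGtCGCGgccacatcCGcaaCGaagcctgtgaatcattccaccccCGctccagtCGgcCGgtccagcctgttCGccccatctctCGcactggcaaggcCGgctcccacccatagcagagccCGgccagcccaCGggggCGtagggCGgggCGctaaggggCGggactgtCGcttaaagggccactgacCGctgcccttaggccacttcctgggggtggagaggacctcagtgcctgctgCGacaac
Fkbpl: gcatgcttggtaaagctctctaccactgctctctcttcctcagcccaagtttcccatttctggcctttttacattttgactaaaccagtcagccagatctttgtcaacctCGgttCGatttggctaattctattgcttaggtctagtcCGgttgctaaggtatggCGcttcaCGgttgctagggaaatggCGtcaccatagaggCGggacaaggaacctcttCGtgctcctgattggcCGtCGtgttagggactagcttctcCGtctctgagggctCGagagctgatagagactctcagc

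The Oas3 window is shown because Oas3, which makes an antiviral second messenger, was the only one of 22 interferon-stimulated genes with a window whose promoter was called at P14 alone. It lies at chr5:120777610-120777909 on the minus strand and held 3 CG sites. Capitals mark the overlapping matches to GAAANNGAA, a core of the elements bound by interferon regulatory factors (IRF), which 8.10% of all 21045 promoter windows held on either strand.
Oas3: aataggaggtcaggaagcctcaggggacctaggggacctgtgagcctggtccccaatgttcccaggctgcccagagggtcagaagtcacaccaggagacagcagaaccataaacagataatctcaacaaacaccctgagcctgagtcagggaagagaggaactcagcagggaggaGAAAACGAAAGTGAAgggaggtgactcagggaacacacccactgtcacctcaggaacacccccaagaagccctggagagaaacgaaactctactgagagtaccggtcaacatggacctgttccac

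The difference between the ages lay on the side of P14. At P21, 7290 of 74297 regions (9.81%, exact 95% interval 9.599 to 10.03) were absent from the P14 list, and at P14 23870 of 91043 (26.2%, 25.9 to 26.5) were absent from the P21 list. Intervals are of the Clopper-Pearson kind and cover the error of counting, not differences between animals, and no spread between replicates can be given with 1 pooled list per age. Among strong regions, those in the upper 50% of their own list by -log10 p, 68 of 37150 (0.183%, 0.142 to 0.232) were in P21 HPCs alone and 1724 of 45638 (3.78%, 3.60 to 3.96) in P14 HPCs alone. Merging both lists gave 97354 regions, of which 66195 were in both. The median -log10 p was lower at P21, with 48.9 at P21 and 60.2 at P14, whereas the median fold over the local background was higher, with 10.2 at P21 and 9.54 at P14. Regions covered 45.45 Mb at P21 and 53.612 Mb at P14. The number of reads per library is unknown, and the part of depth in these counts was not tested.

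The longer P14 list was also shortened to 74297 regions by -log10 p, which dropped 16746 regions and kept those from 22.4 up. At equal length the counts over all regions were nearly equal, with 11493 (15.5%) in P21 HPCs alone and 11686 (15.7%) in P14 HPCs alone. Strong regions stayed unequal, with 99 (0.266%) in P21 HPCs alone and 705 (1.90%) in P14 HPCs alone. When the P14 list was instead shortened by fold over the local background, the gap narrowed to 536 strong regions at P21 alone and 735 at P14 alone. Strong regions were still taken by -log10 p there. The value used to shorten the P14 list thus changed how unequal the ages were, and P14 had the larger number in each of these settings.

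Presence in the other list followed strength. At P21, 46.4% of the weakest class (1 of 10 equal classes by -log10 p) were absent at P14, against 0.794% in class 6 and 0.0135% in class 8. All 7430 regions of class 9 and all 7430 of class 10 were present at P14, and the exact interval of the absent share reaches 0.0496% in each. At P14, 79.4% of the weakest class were absent at P21, 11.5% in class 6, 1.79% in class 8 and 0.264% in class 9. The 1 region of class 10 that was absent at P21 had the highest -log10 p of the P14 list, 2648 over 232 bp at chr1:24613000-24613231. Its nearest protein-coding gene end is that of Col19a1, a collagen gene, 25078 bp away. It lies between the pseudogenes Gm10222, 300 bp away, and Gm10925, 740 bp away, and RefSeq lists the mitochondrial gene mt-Atp6 among the synonyms of Gm10925. Reads from copies of mitochondrial DNA can be placed in more than 1 position, so this region is uncertain.

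**Figure D1:**
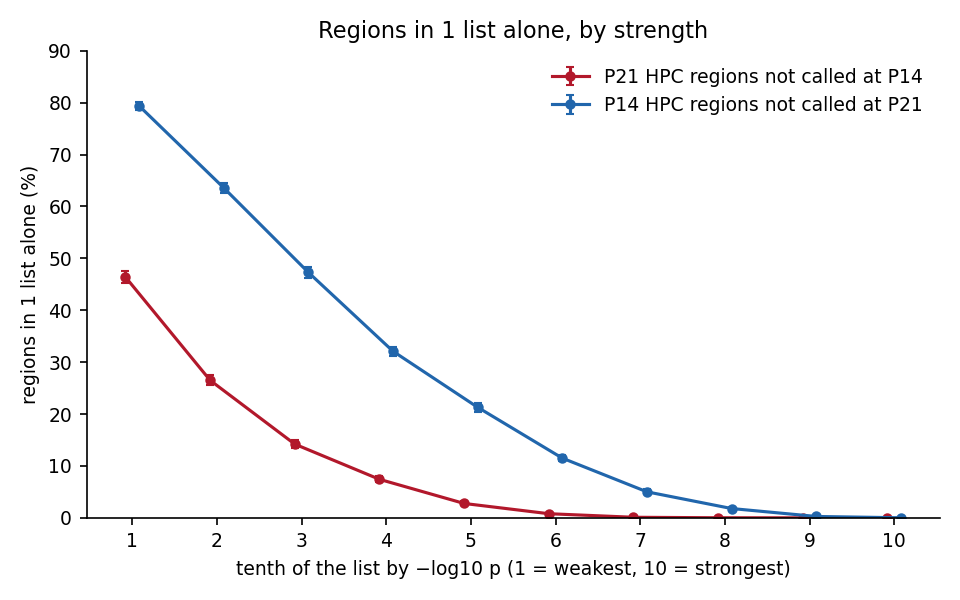
Share of regions in 1 list alone (vertical axis, percent) in 10 equal classes of -log10 p within each list (horizontal axis, weakest to strongest). Points are shares in P21 HPCs (red) and P14 HPCs (blue), and bars are exact 95% intervals. The P21 curve starts at 46.4% and the P14 curve at 79.4%, and P21 lies below P14 in every class.

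The strong regions in P21 HPCs alone were mostly called at other ages as well. Of the 68, 54 (79.4%) were called in the E16.5 HPC list, 43 (63.2%) in that of P7 and 61 (89.7%) in that of 8-week HPCs, and 33 were in all 3. Strong P21 regions that P14 shared were called in 97.7% to 99.5% of cases in these lists. In the HSC lists 52.9% of the 68 were called at E16.5, 52.9% at P14 and 66.2% at 8 weeks. Each was called in at least 1 of the 10 other lists, and 8 were in all 10. With 1 region per gene and predicted genes left out, those named lay nearest to Fhad1, Tmem63b, Cers3, P2rx1, Lrpprc, Malt1 and Aff3. P2rx1, an ATP-gated channel of platelets and blood cells, was at 55.6 and Malt1, a paracaspase of NF-kappaB signalling, at 55.1. Apart from Fhad1, these were named after their values were seen.

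The strong regions in P14 HPCs alone were likewise mostly called in the other HPC lists of set 1. Of the 1724, 88.6% were called in E16.5 HPCs, 90.5% in P7 HPCs and 94.4% in 8-week HPCs, and 1338 (77.6%) were in all 3, against 96.8%, 98.1% and 99.2% of the strong P14 regions that P21 shared. The P7 HPC lists of set 2 held fewer of the 1724, with 48.4% in the receptor knockout and 55.7% in the wild type, against 88.3% and 91.9% of the shared ones. The 1724 were called in 90.1% of cases in E16.5 HSCs, 67.0% in P14 HSCs and 86.8% in 8-week HSCs. In all, 287 were in every one of the 10 other lists and 1 was in none. Few were called up to P14 and not later: 57 regions (3.31%) were called at E16.5, P7 and P14 and in neither the P21 nor the 8-week list. A further 8 were called in P14 HPCs alone among the 5 HPC lists of set 1. Across these 5 lists the union held 125528 regions, of which 50740 were in all 5. Regions missing from 1 list alone numbered 3962 for E16.5, 3536 for P7, 790 for P14, 5133 for P21 and 1754 for 8 weeks. Regions in 1 list alone numbered 12717, 3335, 5570, 2209 and 7607 in the same order of ages. The P21 list thus had the most regions missing from it alone and the fewest found in it alone, and it was the shortest of the 5.

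**Figure D2:**
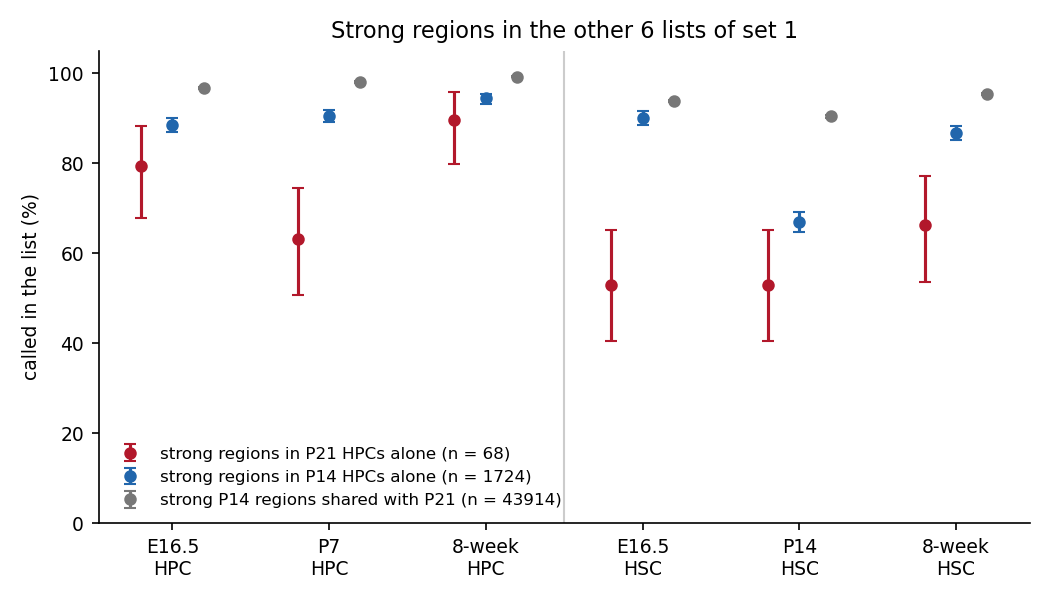
Share of strong regions called in the other 6 lists of set 1 (percent) for regions in P21 HPCs alone (red, n = 68), in P14 HPCs alone (blue, n = 1724) and P14 regions shared with P21 (grey, n = 43914); bars are exact 95% intervals. Regions in P14 HPCs alone lie between 67.0% and 94.4% and regions in P21 HPCs alone between 52.9% and 89.7%.

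The 10 regions with the highest -log10 p in P21 HPCs alone, 1 per gene, were headed by the promoter of H2-Q6 (126, chr17:35424662-35424991). In the P21 list this region ranked in the upper 21.2%. The nearest P14 region was 9844 bp away. It was also called in 8-week HPCs, in all 3 HSC lists of set 1 and in P7 wild-type HSCs of set 2, but in neither E16.5 nor P7 HPCs. The other 9 lay between 65.4 and 74.8, where the limit for a strong region is 48.9 at P21 and 60.2 at P14. A region 8000 bp inside Stard3nl (74.8), which encodes a membrane protein of late endosomes, was called in 9 of the 10 other lists. An intragenic region of Fhad1 (69.3), a gene for a protein with a forkhead-associated domain, was called in all 10. The others lay near Cmc2 (73.9, assembly of cytochrome c oxidase), Mgst2 (71.8, a microsomal glutathione S-transferase), Atp6v1b1 (67.6, a subunit of the vacuolar proton pump), Cenpf (66.7, a centromere protein), Elk4 (66.5, an ETS-family factor of the serum response), Sgce (66.3, an imprinted sarcoglycan) and Ppp1r12a (65.4, a subunit of myosin phosphatase).

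The 10 strongest regions in P14 HPCs alone lay higher in their list, and 7 of them were called in all 10 other lists. After the Col19a1 region these were an intragenic region of Nxn (243, a thioredoxin relative of Wnt signalling), a 1167 bp region across the Kctd11 promoter and an end of Acap1 (228), and regions inside Hdac4 (226, a class IIa histone deacetylase), Cobl (219, an actin nucleator) and Prkcb (203, protein kinase C beta). A region at Prrt1 (193), within Ppt2, and the promoter region of Fkbpl (191) completed the 7. Regions near Dok4 (216, a docking protein of tyrosine kinases) and Magi3 (193, a membrane scaffold) were called in 8 and 9 of the 10 other lists. The Nxn region at chr11:76306635-76307241 was 44840 bp from the nearest P21 region, and the Hdac4 region at chr1:91954788-91955497 was 6823 bp from it.

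**Figure D3:**
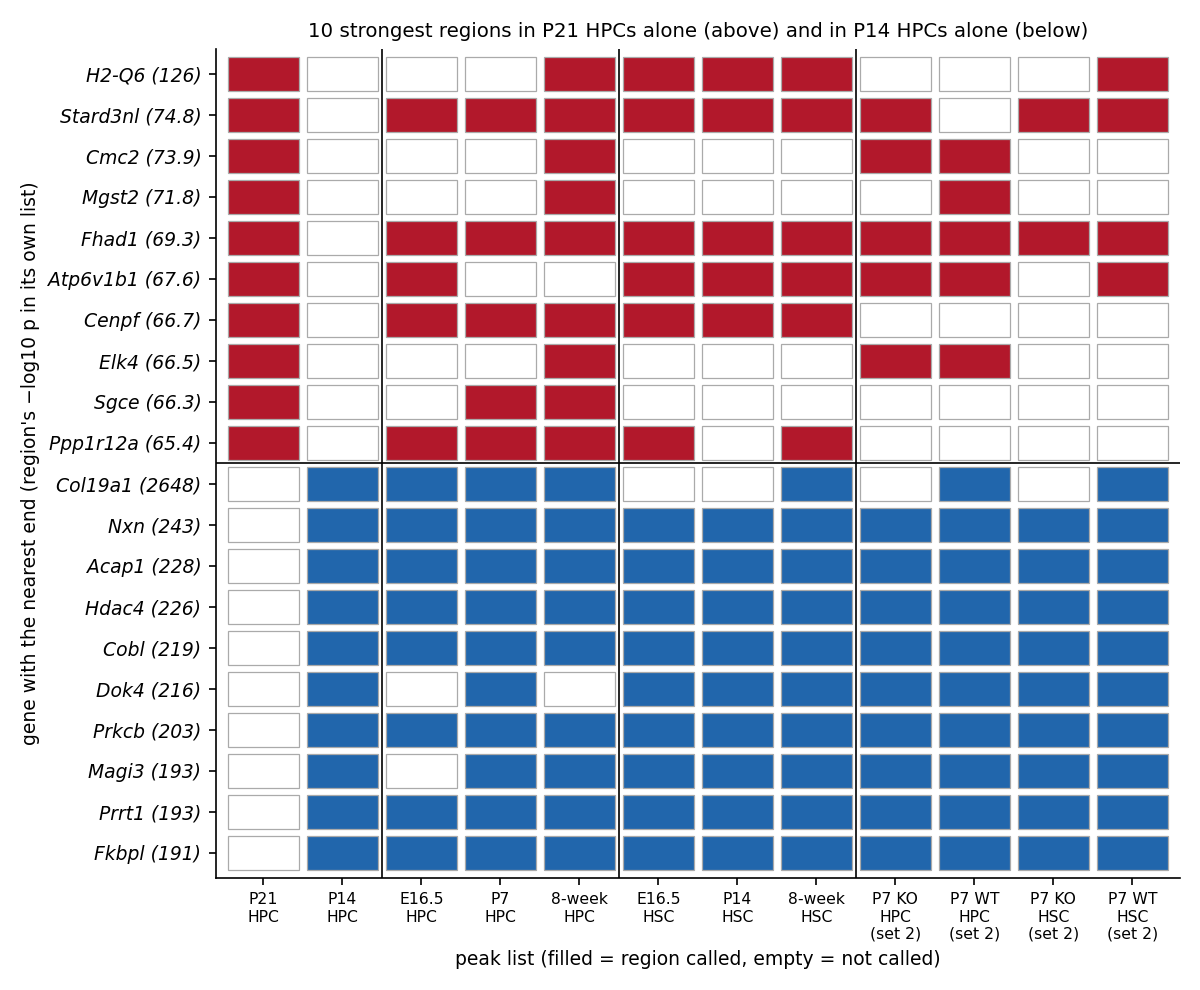
The 10 strongest regions in P21 HPCs alone (red, above) and in P14 HPCs alone (blue, below), each named by the nearest gene end, with the -log10 p in the region's own list, across the 12 peak lists. A filled box is a called region. Fhad1 and 7 of the P14 regions are filled in all 10 other lists.

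Regions first called among HPCs at P21 and also called at 8 weeks were few, 8 of the 68. With 1 region per gene and predicted genes left out, they lay near H2-Q6, Cmc2, Mgst2, Elk4, Dusp13 (58.2, a dual-specificity phosphatase) and Msantd3 (51.7). The regions near Cmc2, Elk4 and Dusp13 were in none of the HSC lists of set 1, but both P7 HPC lists of set 2 held all 3 of them. The P7 lists of the 2 sets thus differed at these regions. The Mgst2 region was in the set 2 list of P7 wild-type HPCs and not in that of the receptor knockout.

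Regions called in HPCs until P14 and in neither older list were led by one near Pcp4 (176, chr16:96533658-96534392), a calmodulin-binding protein gene, which was in all 3 HSC lists of set 1 and all 4 lists of set 2. The next lay near Olfr905 (123), an odorant receptor gene, inside Rnf157 (106), a ubiquitin ligase gene, inside the imprinted gene Peg3 (103), and near Micall2 (102) and Gucd1 (89.0). Regions inside Kmt2b (81.2), an H3K4 methyltransferase gene, and near Inpp5d (77.9), which encodes the phosphatase SHIP1 of blood cells, had the same course. The Peg3 region was 198 bp from a P21 region with a -log10 p of 118, so open chromatin was called beside it at both ages. Both this group and the preceding one were picked after their values were seen.

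Nearby open chromatin differed between the directions. The nearest P14 region lay a median of 5736 bp from a strong region in P21 HPCs alone, and 14 of 68 (20.6%) had one within 1 kb. The nearest P21 region lay a median of 13366 bp from a strong region in P14 HPCs alone, and 125 of 1724 (7.25%) had one within 1 kb. P14 has more regions, and the part of that number in the shorter distance was not tested.

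Promoters were a small part of what differed. A promoter window was overlapped by 3 of the 68 strong regions in P21 HPCs alone (4.41%), against 24.3% of strong P21 regions that were shared, and by 47 of the 1724 in P14 HPCs alone (2.73%), against 21.2% of those shared. Shared regions are stronger, so the shares were also set side by side within strength class 6. There they were 3.39% for P21 alone against 8.36% for shared P21 regions, and 2.20% for P14 alone against 7.97% for shared P14 regions. At P14 the interval of the share in class 6 (1.40 to 3.28%) lay below that of shared regions. At P21 the share rests on 2 of 59 regions, and its interval (0.413 to 11.7%) covers the 8.36% of shared regions. Of the strong regions in P14 HPCs alone, 51.2% lay outside protein-coding genes, against 35.4% of shared ones, and within strength class 6 the shares were 51.0% and 42.9%. At P21 the shares outside genes were 41.2% for regions in P21 HPCs alone and 33.5% for shared ones, but 42.4% and 42.6% within class 6.

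Across 21045 promoter windows of 17274 genes, 202 were called in P21 HPCs alone, 601 in P14 HPCs alone, 12488 in both and 7754 in neither. The windows called at 1 age had fewer CG sites than those called at both, with a median of 11 at P21 alone, 10 at P14 alone, 21 in both and 3 in neither. The windows in both stand in stronger regions. When only windows in regions of the weaker 50% of the P14 list were taken, the medians were 10 at P14 alone and 17 in both. The ETS motif CCGGAAG (both strands) was in 0.990% of windows called at P21 alone, 5.66% of those at P14 alone and 17.8% of those in both, against 11.7% of all windows. The SP/KLF motif GGGCGG was in 41.6% at P21 alone, 44.6% at P14 alone and 67.4% in both, against 46.7% of all windows. Within the weaker 50% of each list these gaps were smaller: ETS letters were in 0.633% at P21 alone against 7.30% in both, and in 5.50% (3.69 to 7.85) at P14 alone against 7.85% (6.41 to 9.49) in both. SP/KLF letters were there in 42.4% at P21 alone against 57.0% in both, and in 45.2% at P14 alone against 59.1% in both. The letters of both motifs hold a CG themselves. The TATA box letters TATAAA went the other way, with 14.9% at P21 alone, 8.65% at P14 alone, 6.16% in both and 12.7% of all windows. Within the weaker 50% of each list TATAAA was in 13.9% (8.94 to 20.3) at P21 alone against 7.82% in both, and in 8.45% (6.18 to 11.2) at P14 alone against 7.52% in both, so at P14 the intervals overlap. The shares of RUNX, GATA, AP-1, C/EBP and IRF letters lay between 3.47% and 15.8% at P21 alone and between 3.66% and 11.6% at P14 alone. In both they were 11.9%, 5.47%, 4.21%, 2.22% and 6.69%. Each share at 1 age alone was above that in both, except RUNX at P14 alone. Over all windows the shares were 14.7%, 9.68%, 7.04%, 2.86% and 8.10% in the same order, so GATA at each age alone lay below all windows. At P21 alone the interval of each share covers the share in both. Within the weaker 50% of the P21 list GATA was in 5.06% (2.21 to 9.73) at P21 alone against 6.28% in both. Within that of the P14 list RUNX was in 12.6% at P14 alone against 13.3% in both. Within these weaker lists the remaining shares were higher at 1 age alone. AP-1 letters were in 6.93% at P21 alone, 9.65% at P14 alone and 7.04% of all windows. Within the weaker 50% of the P14 list they were in 9.43% (7.04 to 12.3) at P14 alone against 6.39% (5.09 to 7.90) in both, so the intervals overlap. Of the windows at P21 alone, 43.6%, 26.7% and 34.7% were called at E16.5, P7 and 8 weeks, of those at P14 alone 62.2%, 44.8% and 42.6%, and of those in both 97.7%, 95.4% and 96.6%. Within the weaker 50% of the P21 list the shares were 42.4%, 24.7% and 33.5% at P21 alone against 84.3%, 72.9% and 78.8% in both. Within that of the P14 list they were 59.1%, 39.3% and 38.7% at P14 alone against 81.6%, 66.9% and 73.5% in both.

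**Figure D4:**
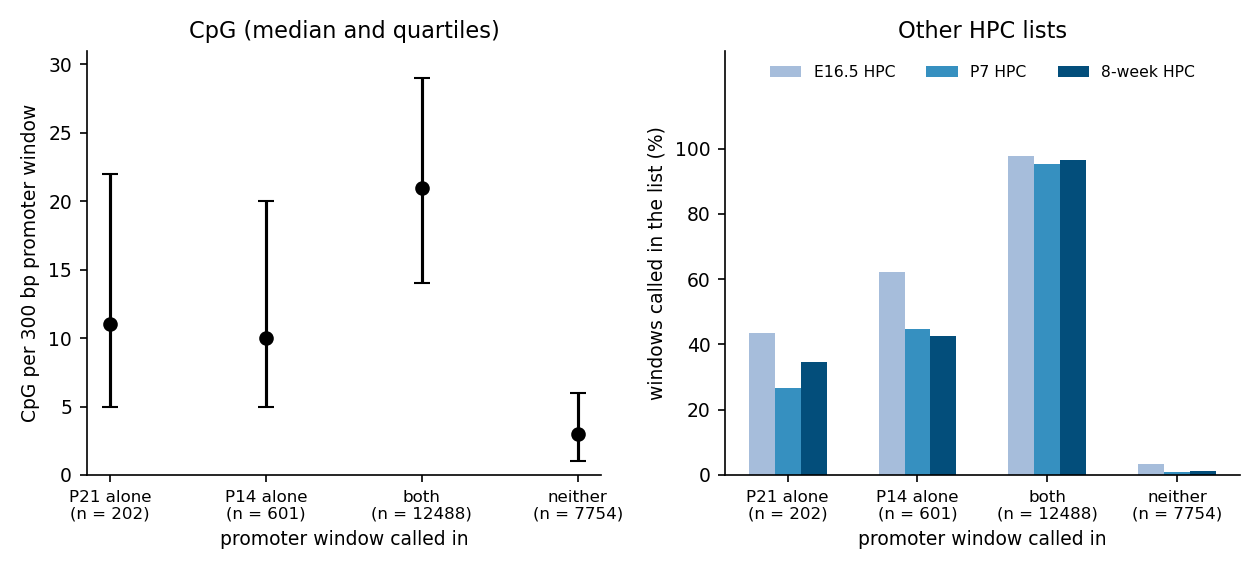
Promoter windows of 300 bp by the list in which they were called (P21 HPCs alone, P14 HPCs alone, both, neither). Left, median number of CG sites per window with quartiles; right, share of windows called in the E16.5, P7 and 8-week HPC lists (percent). Windows called at 1 age have a median of 11 (P21) or 10 (P14) CG sites, and those in both 21.

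Among the promoters in strong regions at P14 alone were those of Gria4 (156, a glutamate receptor subunit), Npy2r (96.7) and Npy5r (69.2), both receptors of neuropeptide Y, Rgs4 (85.0, a regulator of G protein signalling) and Cntnap2 (91.2, a neurexin relative). Others belonged to broadly used genes, such as Snu13 (149, a ribonucleoprotein of the spliceosome), Rptor (129, the mTORC1 scaffold Raptor) and Shc1 (78.5, an adaptor of receptor signalling). These were picked after their values were seen and stand for no test. Each of their regions was also called in the 3 other HPC lists of set 1, so among those HPC lists it was missing at P21 alone. The regions of Npy2r, Cntnap2, Snu13, Rptor and Shc1 were called in all 10 other lists.

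The share of strong P14 regions missing at P21 was larger in longer genes. It was 1.66% in genes under 10 kb, 1.71% from 10 to 50 kb, 2.61% from 50 to 200 kb, 4.40% from 200 to 500 kb and 9.20% (interval 7.91 to 10.6) above 500 kb, and 5.36% outside genes, so genes under 50 kb were much alike and the longest stood apart. Within strength class 6 alone it was 7.35%, 7.54%, 9.10%, 12.0% and 21.4% over the same gene lengths, and 13.4% outside genes. The regions in P21 HPCs alone had no such order, with 0.113%, 0.147%, 0.195%, 0.183% and 0.0852% from the shortest to the longest genes. Of the 1816 strong P14 regions in genes above 500 kb, 97.2% were called in E16.5 HPCs, 98.3% in P7 HPCs, 90.8% in P21 HPCs and 99.6% in 8-week HPCs. In genes up to 50 kb the shares were 97.7%, 98.0%, 98.3% and 99.0%. Among HSC lists, that of P14 HSCs held the fewest of the regions in the longest genes (77.0%), against 93.7% at E16.5 and 93.8% at 8 weeks. The gap between the longest and the shorter genes was thus widest in the P21 HPC and P14 HSC lists, the 2 shortest of the 8 lists of set 1 with 74297 and 73287 regions. The part of list length in this pattern was not tested.

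**Figure D5:**
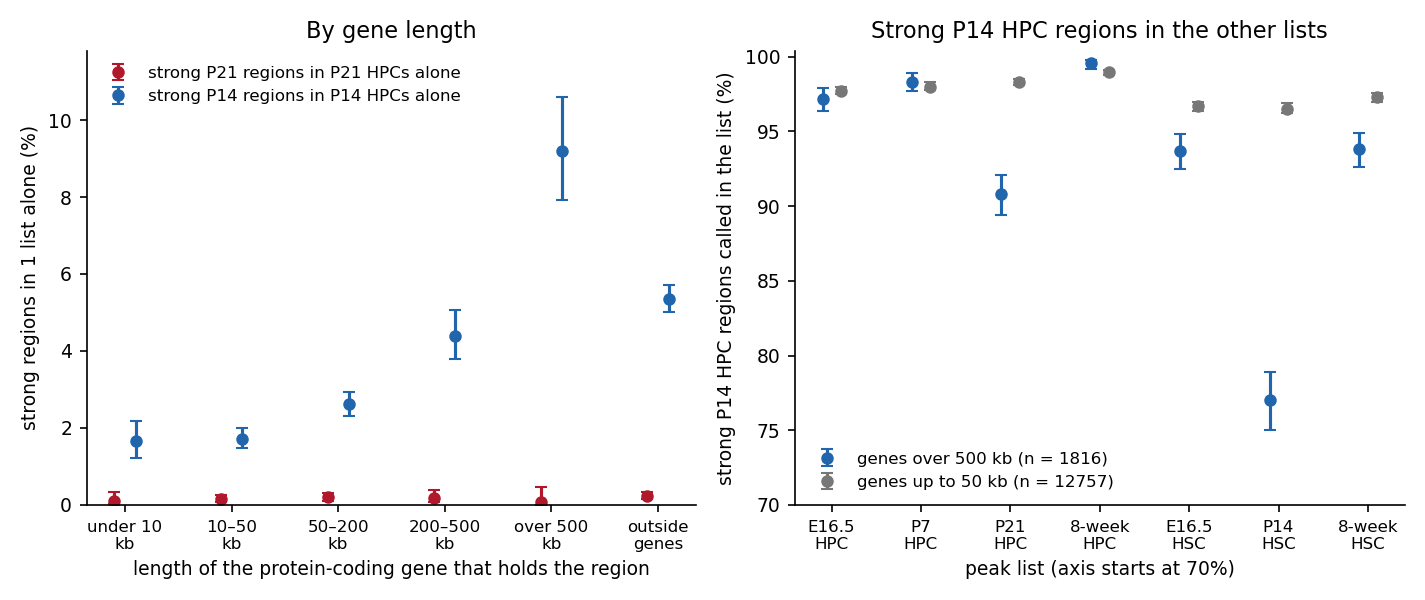
Left, share of strong regions in P21 HPCs alone (red) and in P14 HPCs alone (blue) by the length of the protein-coding gene that holds them (percent, exact 95% intervals). Right, share of strong P14 HPC regions in genes over 500 kb (blue, n = 1816) and up to 50 kb (grey, n = 12757) that were called in the other lists of set 1; the vertical axis starts at 70%. In genes over 500 kb, 90.8% of these regions were called at P21 and 77.0% in P14 HSCs.

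Of the 5 genes with the largest surplus of strong regions at P14, 4 span more than 500 kb and Foxn3 between 200 and 500 kb. Of all 21631 protein-coding genes, 227 span more than 500 kb. The rank is by number of regions and not by share, so genes that hold many regions can lead it. These regions are among those counted by gene length above and add no separate evidence. Within the gene body and 10 kb on each side, Tenm3 (a teneurin), Dpp6 (an accessory protein of potassium channels), Foxn3 (a forkhead repressor) and Asic2 (an acid-sensing ion channel) each had 4 strong regions in P14 HPCs alone and 0 in P21 HPCs alone, and Dab1 (an adaptor of reelin signalling) had 3 and 0 in the same order. Counting regions of any strength, Tenm3 had 31 at E16.5, 22 at P7, 26 at P14, 12 at P21 and 26 at 8 weeks. Dpp6 had 30, 16, 20, 7 and 32 over the same ages, Asic2 21, 13, 27, 8 and 23, and Dab1 25, 16, 15, 6 and 15. In these 4 genes P21 had the lowest count of the 5 ages. The genes were picked for strong P14 regions absent at P21, which favours a low count at P21. The P21 list is also the shortest of the 5 HPC lists of set 1. Foxn3 differed, with 30 regions at E16.5, 26 at P7, 35 at P14, 30 at P21 and 36 at 8 weeks. At P21 the largest surplus of any gene was 1 strong region, which 55 genes had. The naming rule, by the highest -log10 p among these ties, gave H2-Q6, Stard3nl, Fhad1, Atp6v1b1 and Cenpf.

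Over all 21631 protein-coding genes and 10 kb on each side, 49 of 28511 strong regions (0.172%) were in P21 HPCs alone and 1019 of 33956 (3.001%) in P14 HPCs alone, and the median difference per gene was 0. The median was 0 in each of the 17 gene lists as well. Among HSC regulators and markers, 0 of 99 strong regions were in P21 HPCs alone and 6 of 126 (4.76%, 1.77 to 10.1) in P14 HPCs alone. Lmo2, a LIM-only partner of the stem cell factors, had 2, inside it (64.6) and within 10 kb of it (75.5), the latter nearest to a predicted gene. Vwf, the gene of von Willebrand factor, had 2 outside its bounds, inside Ano2 (71.9) and 4101 bp away (64.8). The others lay inside Mecom (92.8), a regulator of HSC self-renewal, and Mllt3 (106). For strong regions, the share of all genes, 0.172% at P21 alone and 3.001% at P14 alone, lay within the interval of each of the 17 lists. No list is set apart by its count of strong regions. With regions of any strength, the share at P14 alone ran from 14.5% (immediate early genes and AP-1) to 39.2% (neuronal markers), against 23.7% over all genes. No intervals were computed for these shares. Lists of progenitor markers (35 strong P14 regions), lymphoid priming (61) and T and NK cell genes (35) had no strong region in either age alone. Flt3, the receptor of early lymphoid and multipotent progenitors, Cdk6, Hlf and Cd48 also had none, and Flt3 had 10 regions at P21 and 10 at P14.

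Ebf1, the transcription factor that commits progenitors to the B lineage, accounted for all 3 of the 38 strong P14 regions of the B cell list that were absent at P21, and 0 of 30 were in P21 HPCs alone. They lay inside the gene, at chr11:44624559-44625027 (130), chr11:44928362-44928842 (76.7) and chr11:44632941-44633636 (71.9), and the nearest P21 regions were 5952, 2805 and 4641 bp away. All 3 were called in the E16.5, P7 and 8-week HPC lists. Ebf1 had 20 regions at E16.5, 21 at P7, 27 at P14, 15 at P21 and 25 at 8 weeks. No promoter window of Ebf1 was called in either list. Bach2, a repressor that favours lymphoid fates, had 1 strong region at P14 alone (69.9), and had 33 regions at P21 and 42 at P14. Dntt, the enzyme that adds bases to joining antigen receptor genes, had no strong region at either age alone.

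In the fetal programme, 0 of 22 strong regions were in P21 HPCs alone and 3 of 35 (8.57%, 1.80 to 23.1) in P14 HPCs alone, 1 each inside Igf2bp3 (178), Peg3 (103) and Hmga2 (80.1), against 3.001% over all genes. The Igf2bp3 and Hmga2 regions were called in 8-week HPCs too, and the Peg3 region was not. Igf2bp3, an RNA-binding protein gene of fetal progenitors, had 5, 6, 7, 6 and 4 regions at E16.5, P7, P14, P21 and 8 weeks. Hmga2, a chromatin protein gene of fetal HSCs, had 13, 13, 17, 8 and 10. Lin28b, which blocks the maturation of let-7, had 11, 6, 8, 6 and 4, none of its strong regions was in 1 of the 2 ages alone, and its promoter window was called at P14 and not at P21, whereas that of Peg3 was called at P21 and not at P14. Of the 13 promoters of the list, 8 were called at each age. Hmga2 thus had its lowest count at P21, and Igf2bp3 and Lin28b theirs at 8 weeks.

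Interferon-stimulated genes had 0 of 60 strong regions in P21 HPCs alone and 3 of 68 (4.41%, 0.919 to 12.4) in P14 HPCs alone, against 3.001% over all genes. With regions of any strength the share at P14 alone was 17.1%, against 23.7% over all genes. The 3 were the Oas3 promoter region (93.1, chr5:120777537-120777874), a region between Oasl1 and Oasl2 (61.3), both relatives of the oligoadenylate synthetases, and a region inside Coil (67.4). The last counts through the 10 kb around Trim25, a ubiquitin ligase of RNA sensing. The Oas3 region, whose sequence is given above, was called in P7 and 8-week HPCs, in P14 and 8-week HSCs and in both P7 HPC lists of set 2, wild type and receptor knockout. Over promoters, 18 of 22 genes of the list were called at P21 and 17 at P14, with Ifitm3 and Oasl1 called at P21 alone and Oas3 at P14 alone. Isg15 and Irf7 had called promoters at both ages and no strong region at either age alone. Genes of MHC and antigen presentation had 0 of 29 strong regions in P21 HPCs alone and 2 of 39 in P14 HPCs alone, near H2-Eb1 (101) and within 10 kb of H2-D1 (74.1). The latter lay nearest to Ddx39b. The list does not hold H2-Q6, whose promoter had the strongest region in P21 HPCs alone. It had 10 of 11 promoters called at P21 and 11 at P14. Ciita, the master regulator of MHC class II, had 9 regions at P21 and 10 at P14.

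The lists of mature lineages and of other tissues held few such regions. The myeloid list had 0 of 35 in P21 HPCs alone and 1 of 42 in P14 HPCs alone, inside Itgam (80.3), which encodes the integrin CD11b. The erythroid and megakaryocytic list had 1 of 41 in P21 HPCs alone, the Hbq1b promoter region (53.8) within 10 kb of Hba-a1, and 0 of 49 in P14 HPCs alone. Cytokine and innate receptors had 0 of 78 at P21 alone and 2 of 83 at P14 alone, inside Igf1r (138) and Lepr (122). Cell cycle genes had 0 of 59 and 1 of 67 in the same order, at E2f2 (73.0), and the list of immediate early genes and AP-1 factors 0 of 74 and 1 of 80, at Bach2. Macrophage markers had 0 of 22 at P21 alone and 1 of 28 at P14 alone (76.1), 38 bp from a P21 region. It lay inside Fcrl1 and counts through the 10 kb around Cd5l. Endothelial and stromal markers had 0 of 46 and 1 of 46, inside Pecam1 (78.0), and hepatocyte markers had none of 20 and 21. Neuronal markers had 0 of 31 at P21 alone and 4 of 43 (9.30%, 2.59 to 22.1) at P14 alone: 2 inside Grin2b (87.8 and 79.1), an NMDA receptor subunit, and 1 each inside Syt1 (64.3) and Snap25 (142), both of synaptic vesicle release. The 3.001% of all genes lies within that interval. Grin2b had 21 regions at E16.5, 15 at P7, 17 at P14, 8 at P21 and 16 at 8 weeks. In these lists, as over all genes, P14 alone held at least as many strong regions as P21 alone, except in the erythroid and megakaryocytic list, whose balance turned negative with regions of any strength and with 50 kb around genes; that of the myeloid list turned positive at equal length.

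By chromosome, the share of strong regions in P21 HPCs alone ran from 0 of 1383 on chromosome 15 to 8 of 1622 (0.493%) on chromosome 17. The share in P14 HPCs alone ran from 2.97% on chromosome 7 to 4.79% (3.60 to 6.24) on chromosome X, and every chromosome held more strong regions in P14 HPCs alone than in P21 HPCs alone.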

How the data were processed

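ATAC-seq peak lists of P21 and P14 HPCs were compared, with the 10 other lists of the series as context. Per the submitters' processing notes the authors used Bowtie2 and MACS2 with the mouse build mm10 (GRCm38). Neither versions nor thresholds, read depths or the pooling of libraries are stated. Each deposited list gives, for each peak, its -log10 p, its -log10 q and its fold (ratio) over the local background. These are the authors' own values, which were used to rank or filter within a list.

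Peaks that touched or overlapped were merged per list on chromosomes 1 to 19 and X, and the highest -log10 p among its peaks became that of the region. Strong regions are the upper 50% of a list. Gene bounds and promoter windows came from RefSeq on GRCm38.p6, a region was named by the protein-coding gene with the nearest end within 50 kb, and gene counts took the gene body and 10 kb on each side. Genes are in a length class by the longest protein-coding gene that a region overlaps. Motifs were searched on both strands of the promoter windows, in place of a planned search around peak summits, for which no genome sequence was used here; letters for CTCF and E-boxes were not searched.

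With 1 pooled list per age no test between ages was possible, so counts and shares with exact Clopper-Pearson 95% intervals are given. Named regions are the 10 with the highest -log10 p in each direction, 1 per gene, with predicted genes left out. Named genes are the 5 with the largest difference in each direction, up to 3 members per list with a difference of at least 2, and a list of genes always named. Of the gene list members, 301 matched a RefSeq symbol and 3 did not. The members and lists were chosen with earlier results of these data known. Alternatives were equal length by -log10 p and by fold, an overlap of 50%, peaks up to 200 bp apart merged, a -log10 q of at least 2, the upper 25% as strong, chromosome Y added and a window of 50 kb around genes. Analysis used Python 3.11.15, numpy 2.4.6, pandas 2.3.3, scipy 1.17.1 and matplotlib 3.10.9. The code that counts regions in 1 list alone was checked on a copy of the P21 list from which regions had been removed.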

Additional observations from a re-analysis of the deposited data

Results flagged for a closer look

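Chromosome Y lies outside the comparison. The P21 HPC list held 7 regions on it and the P14 HPC list 16. The labels give no sex for the mice. None of the 7 was in P21 HPCs alone, and 9 of the 16 were in P14 HPCs alone. The highest -log10 p on it was 71.5 at P21 and 306 at P14.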

How the results depend on the processing

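No paired analysis was possible because the libraries of each age were pooled into 1 list, so that neither a replicate block nor leaving out a library could be computed. Shortening the P14 list to equal length by -log10 p gave 11493 regions in P21 HPCs alone and 11686 in P14 HPCs alone, and 705 strong ones in P14 HPCs alone. By fold these numbers were 13175 and 13530 regions, and 536 and 735 strong ones. With the upper 25% as strong, 1 region was in P21 HPCs alone and 71 in P14 HPCs alone. An overlap of 50%, merging over 200 bp, a -log10 q of at least 2 and chromosome Y changed these 4 counts by less than 1.5 times. The balance over all protein-coding genes (strong regions in P21 HPCs alone minus those in P14 HPCs alone) was -970, -10377 with regions of any strength and -342 at equal length, and -1187 with 50 kb around genes. Of 51 gene list balances under alternatives, 3 changed sign: the myeloid list from -1 to 1 at equal length, and the erythroid and megakaryocytic list from 1 to -21 with all regions and to -1 with 50 kb. The causes were not tested. Without depth per library, a region absent from a list may be one that was not detectable there, and weak regions are the least certain.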
